A study of Rattus norvegicus with 10 samples.

Results

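The genes described here are 8 components of MHC class II antigen presentation, followed across 10 RNA-seq libraries of muscle from beneath the skin of rats. Members were taken by symbol: Cd74, RT1-Ba, RT1-Bb, RT1-Da, RT1-Db1, RT1-DMa, RT1-DMb and Ciita. Each symbol had 1 row, so that 8 of 17221 rows were members, and all 8 were among the 10259 rows kept by the filter on low values. All animals were female Wistar rats (their age is not given in the labels), a different rat for each library, and all carried collagen-induced arthritis, raised by injecting bovine type II collagen in adjuvant. The 5 groups of 2 animals were RA_0, sampled before any therapy, AP_1h and AP_34d, sampled 1 h and 34 days into acupuncture with a turned needle, and PLA_1h and PLA_34d, sampled at the same times into placebo, an injection of saline. No animal without arthritis was analysed here, so every group, RA_0 included, shares the immunisation. Every group sampled after RA_0 was treated, so a difference from RA_0 mixes therapy with time. The saline was injected into the peritoneum, so acupuncture and placebo differ in more than the turning of a needle. A piece of excised muscle holds whatever other tissue came with it.

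MHC class II molecules display peptides from engulfed or internalised proteins to helper T cells. They are carried chiefly by B cells, dendritic cells and macrophages, while resting muscle fibres are known for carrying little or none. An α and a β chain pair in the endoplasmic reticulum around the invariant chain Cd74, which fills the groove and steers the complex to acidic compartments, where the chaperone DM swaps the remnant of Cd74 for a peptide. Transcription of these genes depends on Ciita, a co-activator that does not itself bind DNA but docks on factors assembled at a conserved promoter module, whose elements include the X box and the Y box.

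In the rat the class II chains are encoded in the RT1 complex. In build rn4, the build of the deposited table, 6 members lay on chromosome 20: RT1-Da (NM_001008847) at 4636310 to 4641282, RT1-Db1 (NM_001008884) at 4671489 to 4681058, RT1-Ba (NM_001008831) at 4697971 to 4702564, RT1-Bb (NM_001004084) at 4730559 to 4736201, RT1-DMb (NM_198740) at 4829535 to 4836772 and RT1-DMa (NM_198741) at 4843458 to 4846861. Cd74 (NM_013069) lay on chromosome 18 at 56756511 to 56765711, and Ciita (NM_053529) on chromosome 10 at 5087174 to 5133418. These spans are whole transcripts, exons and introns together. The annotated span of RT1-Bb overlapped another transcript, LOC688090, which was listed at 0 reads in all 10 libraries, so the level of RT1-Bb is uncertain. No other member overlapped a listed transcript, although close copies such as RT1-Db1 and RT1-Db2 may still share reads.

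The promoters of these genes are shown as background on the module described above. Whether it had a part in the levels of the members across libraries was not tested. RefSeq's table for build GRCr8 held 6 of the 8 members, from 250 bases before to 50 bases after the start of each gene, and no entry for RT1-DMb or Ciita. The 70 bases around the module are given 5′ to 3′ on the strand of the gene, with capitals marking the Y box TGATTGG and the core of the X box, GCAAC. RT1-Da lies at chr20:4515314-4515383 (plus strand), RT1-Ba at chr20:4576962-4577031 (plus), RT1-Db1 at chr20:4560225-4560294 (minus), RT1-Bb at chr20:4604162-4604231 (minus), RT1-DMa at chr20:4712382-4712451 (minus) and Cd74 at chr18:56527116-56527185 (plus).
RT1-Da: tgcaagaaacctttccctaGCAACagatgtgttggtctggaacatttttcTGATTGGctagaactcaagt
RT1-Ba: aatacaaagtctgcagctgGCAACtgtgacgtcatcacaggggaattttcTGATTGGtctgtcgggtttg
RT1-Db1: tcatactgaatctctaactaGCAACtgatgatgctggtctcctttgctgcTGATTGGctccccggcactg
RT1-Bb: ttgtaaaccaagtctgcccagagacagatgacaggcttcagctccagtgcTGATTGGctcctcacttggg
RT1-DMa: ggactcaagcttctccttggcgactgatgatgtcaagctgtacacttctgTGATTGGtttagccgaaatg
Cd74: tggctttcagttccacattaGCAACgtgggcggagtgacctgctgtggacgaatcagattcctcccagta

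The Y box stood in 5 of these 6 promoters and the X core in 4. In RT1-Da, RT1-Ba and RT1-Db1 the X core began 31, 31 and 30 bases before the Y box. Searched on both strands, TGATTGG was found in 7.06% of the 33469 promoters of the table and GCAAC in 35.1%. The pair on one strand at the spacing of the class II genes, 28 to 31 bases, was found in 12 promoters (0.0359%), of which 7 were class II genes, the other class II holders being RT1-DOa, RT1-DOb, RT1-Db2 and RT1-Ha. Motifs and spacing were chosen after the sequences had been read, so these shares describe the window and are not a test. Promoters without a match may hold a variant of the motif or hold it elsewhere.

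The libraries held between 5371687 and 8899521 counted reads. Levels are given in CPM, a read count relative to the size of its library, in which 1 unit stood for 4.19 to 10.1 reads. The authors scaled library sizes with TMM factors, which correct for a few very abundant transcripts taking up reads. A count of 0 allows a level of up to 0.297 to 0.716 CPM, depending on the library (3 reads, counting error only). Because transcript lengths were not given, a level is compared between libraries and never between genes. Markers of skeletal muscle were high throughout, the 14 measured summing to between 145648 and 401432 CPM. PLA_34d replicate 1 stood apart from the other libraries: its muscle markers summed lowest and its B cell, T cell and lymph node markers highest, as detailed below. The members' median differences that rest on that library are given with and without it.

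The chains of RT1-D, the rat counterpart of HLA-DR, were high in AP_1h replicate 1 and PLA_34d replicate 1. RT1-Da, the α chain, was at 45.6 and 35.8 CPM in the RA_0 libraries (replicates 1 and 2 in this order throughout), 184 and 64.8 in AP_1h, 71.8 and 48.1 in PLA_1h, 73.6 and 35.9 in AP_34d, and 272 and 34.5 in PLA_34d. RT1-Db1, the β chain, was at 35.8 and 30.2 CPM in RA_0, 155 and 48.7 in AP_1h, 34.0 and 36.9 in PLA_1h, 60.2 and 19.7 in AP_34d, and 176 and 22.2 in PLA_34d. In both genes PLA_34d held the highest library, and for RT1-Da also the lowest. The lowest library of RT1-Db1 was AP_34d replicate 2.

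RT1-B, the counterpart of HLA-DQ, had the same high libraries. RT1-Ba was at 33.9 and 32.7 CPM in RA_0, 143 and 52.6 in AP_1h, 45.1 and 42.3 in PLA_1h, 67.8 and 26.1 in AP_34d, and 225 and 26.0 in PLA_34d. RT1-Bb, its β chain, was at 16.2 and 17.97 CPM in RA_0, 93.2 and 22.5 in AP_1h, 2.87 and 19.3 in PLA_1h, 43.6 and 16.6 in AP_34d, and 87.0 and 3.13 in PLA_34d. RT1-Bb thus had its lowest levels in PLA_1h replicate 1 (29 reads) and PLA_34d replicate 2 (22 reads), libraries in which RT1-Ba had 455 and 183 reads.

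Cd74, the invariant chain, was at 126 and 100.1 CPM in RA_0, 442 and 135 in AP_1h, 153 and 148 in PLA_1h, 215 and 101 in AP_34d, and 679.7 and 95.2 in PLA_34d. The animals of PLA_1h lay close together, whereas those of AP_1h and PLA_34d lay far apart. As group means, Cd74 was at 387 ± 413 CPM (SD, n = 2) in PLA_34d, 289 ± 217 in AP_1h, 158 ± 80.7 in AP_34d, 150.5 ± 4.08 in PLA_1h and 113 ± 18.1 in RA_0. In that order, neighbouring groups overlapped except PLA_1h and RA_0, and the SD of PLA_34d exceeded its mean.

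The chains of DM, the peptide editor, varied less. RT1-DMa was at 5.96 and 5.94 CPM in RA_0, 26.5 and 6.72 in AP_1h, 5.75 and 10.4 in PLA_1h, 10.9 and 7.77 in AP_34d, and 21.3 and 7.82 in PLA_34d. RT1-DMb was at 15.5 and 7.72 CPM in RA_0, 29.9 and 12.2 in AP_1h, 11.2 and 11.8 in PLA_1h, 13.5 and 9.71 in AP_34d, and 36.5 and 9.24 in PLA_34d. The same pair of libraries led, with AP_1h replicate 1 highest for RT1-DMa and PLA_34d replicate 1 highest for RT1-DMb.

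Ciita, the co-activator, was scarce outside 1 library. It was at 1.19 and 1.19 CPM in RA_0 (5 and 8 reads), 8.32 and 1.12 in AP_1h, 3.97 and 1.05 in PLA_1h, 2.54 and 1.94 in AP_34d, and 38.3 and 1.42 in PLA_34d. The value in PLA_34d replicate 1 rested on 341 reads and was 4.60 times that of AP_1h replicate 1, the next highest. Among the other members this ratio of the same libraries ran from 0.805 (RT1-DMa) to 1.57 (RT1-Ba).

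**Figure D1:**
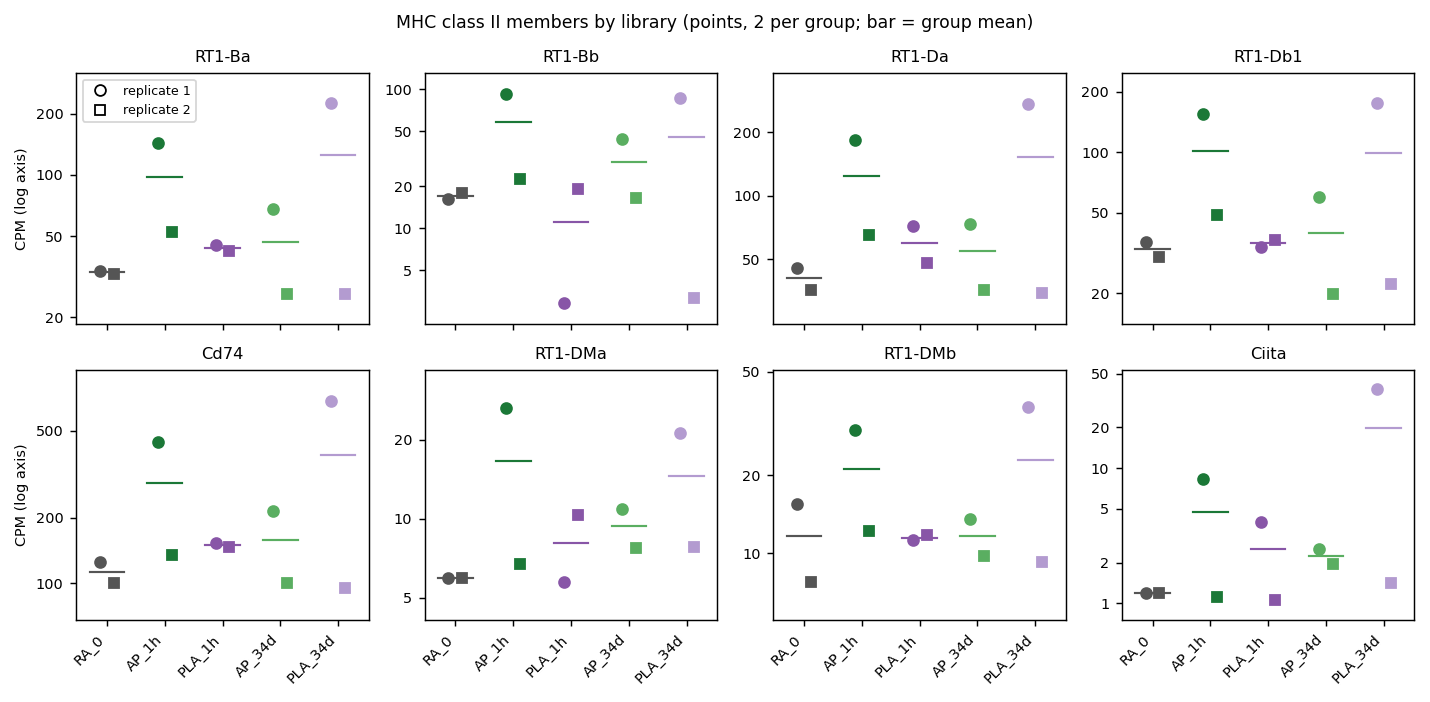
CPM of each member in every library (log axis, a panel per gene), by group, with circles for replicate 1, squares for replicate 2 and a bar at the mean of the 2 libraries. AP_1h replicate 1 and PLA_34d replicate 1 hold the 2 highest values in every panel, and RT1-Bb drops to 2.87 and 3.13 CPM in PLA_1h replicate 1 and PLA_34d replicate 2.

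In each of the 8 genes the 2 highest libraries were AP_1h replicate 1 and PLA_34d replicate 1. PLA_34d replicate 1 was highest in 6 genes, and AP_1h replicate 1 in RT1-Bb and RT1-DMa. Relative to the median of the remaining 8 libraries, AP_1h replicate 1 stood from 2.61-fold (RT1-DMb) to 6.37-fold (Ciita) higher, and PLA_34d replicate 1 from 2.94-fold (RT1-DMa) to 29.3-fold (Ciita). The 8 genes together took 0.128% of all reads in AP_1h replicate 1 (95% Wilson interval 0.125% to 0.130%) and 0.201% in PLA_34d replicate 1 (0.198% to 0.204%), but from 0.0191% (0.0181% to 0.0201%) to 0.0427% (0.0410% to 0.0444%) in the others. The lower end of that span was PLA_34d replicate 2, and AP_1h replicate 2 was at 0.0314%. In pieces of tissue, more cells that carry class II and more class II RNA in each such cell cannot be told apart.

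The first comparison asks what differed 1 h after acupuncture began. Against RA_0, all 8 members were higher on average in AP_1h, with log2 differences from 0.75 (RT1-DMb) to 1.41 (RT1-Da) and a median of 1.24, beside a median of 0.00 over all 10259 transcripts tested. None passed the test: limma's adjusted p lay between 0.670 and 0.837, with SEs from 0.61 to 1.27 on the log2 scale. limma called 0.0292% of all transcripts here (3), and 912 had an unadjusted p under 0.05, none of them a member. In 6 members (all but RT1-DMb and Ciita) both AP_1h libraries lay above both RA_0 libraries, which held in this direction for 20.6% of all transcripts. Without AP_1h replicate 1 the median difference was 0.33. By the study's own rule (unadjusted p under 0.05, at least 2-fold, a mean of at least 1 CPM), 0 members and 6.12% of all transcripts were met.

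After 34 days of acupuncture the differences from RA_0 were smaller. AP_34d against RA_0 ran from 0.05 (RT1-DMb) to 0.63 (RT1-Bb) in log2 units with a median of 0.36, all 8 positive and none called by limma (adjusted p between 0.967 and 0.997). The test called 0% of all transcripts, with 489 at an unadjusted p under 0.05 and no member among them. RT1-DMa and Ciita were the 2 members whose libraries did not overlap, a pattern seen as higher values in 16.4% of all transcripts. The median was -0.16 without AP_34d replicate 1, the higher of the pair for all 8 genes. The study's rule was met by 0 members and 2.82% of transcripts.

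Placebo was compared with the same RA_0 libraries, so these comparisons share their controls. For PLA_1h, 7 members were higher on average and RT1-Bb lower, from -1.03 (RT1-Bb) to 0.54 (Ciita) in log2 units with a median of 0.36. limma gave an adjusted p of 1.00 for every member, called 0% of all transcripts and had 266 at an unadjusted p under 0.05, none a member. Cd74, RT1-Ba and RT1-Da had both PLA_1h libraries above both RA_0 libraries, which 15.8% of transcripts did. The negative value of RT1-Bb rested on PLA_1h replicate 1, without which the difference was 0.17. The study's rule was met by 0 members and 1.67% of transcripts.

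PLA_34d against RA_0 showed a wide range among the members, from 0.08 (RT1-Bb) to 2.15 (Ciita) with a median of 1.09. limma called 0 of 8 members (adjusted p between 0.914 and 0.993) and 0% of all transcripts, with 328 at an unadjusted p under 0.05 and no member among them. RT1-DMa and Ciita did not overlap between the groups, as did 16.8% of all transcripts in this direction. Leaving out PLA_34d replicate 1 turned the median to -0.23. Leaving out PLA_34d replicate 2 raised it to 2.49. In that fit, which assumes the lone PLA_34d library to vary like the other groups, all 8 members met the study's rule beside 10.1% of all transcripts, and limma called 1 member, Ciita, beside 161 transcripts in all (1.57%). With both libraries, the rule was met by 0 members and 2.42% of transcripts.

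Set against each other at 1 h, acupuncture stood above placebo in all 8 members on average, from 0.48 (Ciita) to 2.41 (RT1-Bb) with a median of 0.81. limma called no member (adjusted p 1.00 for each) and 0% of all transcripts, and none of the 414 transcripts at an unadjusted p under 0.05 was a member. RT1-Ba, RT1-Bb, RT1-Db1 and RT1-DMb were higher without overlap, beside 13.9% of all transcripts. Without AP_1h replicate 1 the median fell to 0.11 and Ciita stood at -0.59. The study's rule was met by 0 members and 2.62% of transcripts.

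At 34 days the order was the opposite on average, with 7 members lower in AP_34d than in PLA_34d and RT1-Bb higher. The log2 differences ran from -1.60 (Ciita) to 0.55 (RT1-Bb), with a median of -0.82. limma called no member (adjusted p between 0.890 and 0.970) and 0% of all transcripts, with 561 at an unadjusted p under 0.05 and no member among them. No member was free of overlap in either direction, since PLA_34d replicate 2 lay at or below the AP_34d libraries in 6 genes and PLA_34d replicate 1 above them in all 8. Over all transcripts, 16% were higher and 15% lower in AP_34d without overlap. The median turned to 0.59 without PLA_34d replicate 1 and fell to -2.26 without PLA_34d replicate 2. The study's rule was met by 0 members and 3.57% of transcripts.

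The interaction sets the gap of acupuncture over placebo at 34 days against that at 1 h. It was negative for all 8 members, from -2.12 (RT1-Db1) to -1.19 (RT1-DMa) in log2 units with a median of -1.81, and SEs from 0.86 to 1.79. limma gave each an adjusted p of 1.00 and called 0% of all transcripts, and the 416 at an unadjusted p under 0.05 held no member. With both AP_1h replicate 1 and PLA_34d replicate 1 left out, a choice made after the data had been seen, the median was 0.42.

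**Figure D2:**
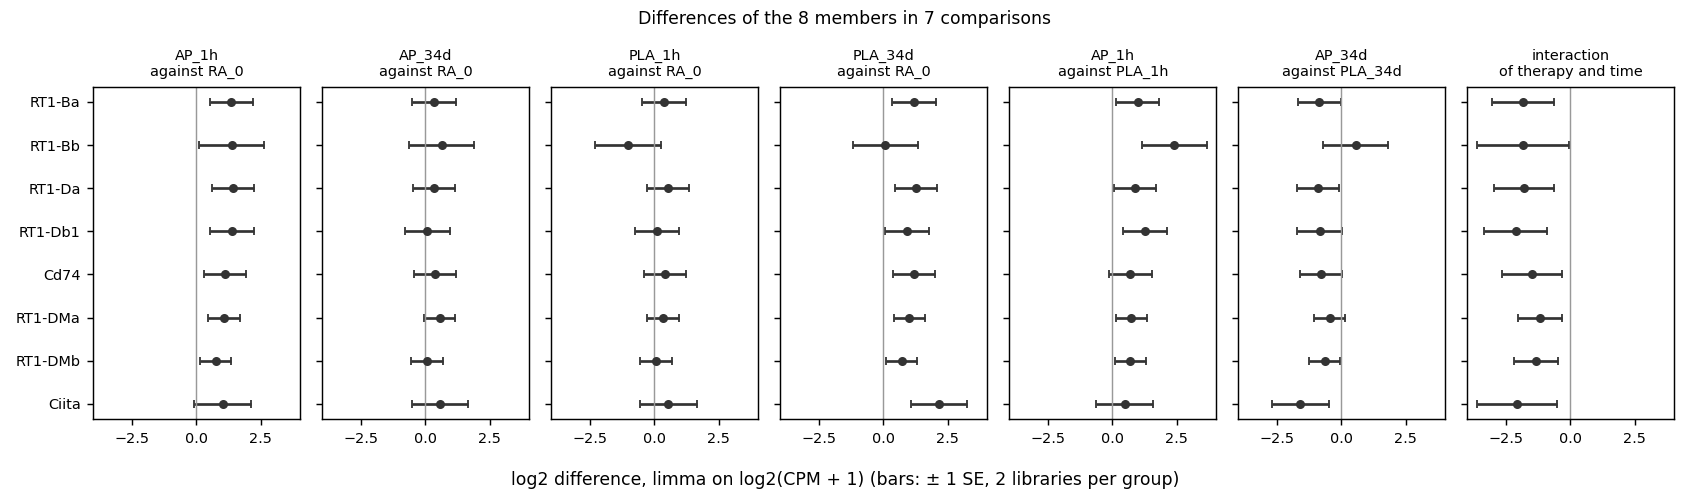
log2 difference (x axis, limma on log2(CPM + 1)) of each member (rows) in each of 7 comparisons (panels), with bars of 1 SE on either side. Each group had 2 libraries, and the SE draws on the spread within all 5 groups, not only those compared. The largest single differences are RT1-Bb in AP_1h against PLA_1h (2.41) and Ciita in PLA_34d against RA_0 (2.15), and no member passed the test in any panel.

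Over the 7 comparisons the 56 fitted differences of the members all had 95% intervals that held 0. The intervals were wide: for AP_1h against RA_0 they reached from -1.43 to 4.19 over the 8 genes, and for AP_34d against PLA_34d from -4.04 to 3.37, so that both higher and lower levels by several fold lie within them. limma-voom, edgeR and DESeq2, run on the reads recovered from the deposited values, also called 0 members in every comparison. At an unadjusted p under 0.05, DESeq2 held 4 members in AP_1h against RA_0 (beside 9.93% of all transcripts), 5 in PLA_34d against RA_0 (5.38%), 1 in AP_1h against PLA_1h (4.72%), 2 in AP_34d against PLA_34d (7.7%) and 6 in the interaction (5.94%). edgeR held 3 in PLA_34d against RA_0 (4.84%), 1 in AP_34d against PLA_34d (7.53%) and 4 in the interaction (5.33%), and limma-voom held 0 throughout. For groups of 2 animals the smallest two-sided p of an exact permutation test is 0.333, so none was run per gene.

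RT1-Ba, RT1-Da and RT1-Db1 kept close proportions to Cd74. On the log2(CPM + 1) scale, the level of RT1-Ba spread over 3.07 units across the 10 libraries, while its ratio to Cd74 in the same library spread over 0.56. RT1-Da spread over 2.94 and its ratio over 0.55, and RT1-Db1 over 3.10 and 0.84. These 3 chains thus stayed nearly level with the invariant chain across the libraries. The ratios of the other members spread more, over 3.08 for RT1-Bb, 2.06 for Ciita, 1.48 for RT1-DMa and 1.24 for RT1-DMb. Pearson's r with Cd74 was 0.988 for RT1-Ba, 0.984 for RT1-Da, 0.970 for RT1-Db1, 0.952 for RT1-DMb, 0.915 for Ciita, 0.893 for RT1-DMa and 0.762 for RT1-Bb. In the 8 libraries without AP_1h replicate 1 and PLA_34d replicate 1, r remained at 0.929, 0.895 and 0.863 for RT1-Ba, RT1-Da and RT1-Db1, but was 0.665 for RT1-DMb, 0.482 for RT1-DMa, 0.442 for Ciita and 0.412 for RT1-Bb. These values describe libraries that share a scaling and a tissue mixture.

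Departures from these proportions were found for RT1-Bb and Ciita, and less distinctly for DM. RT1-Bb gave 5.99% of the reads of RT1-Ba and RT1-Bb together in PLA_1h replicate 1 (95% Wilson interval 4.20% to 8.47%) and 10.7% in PLA_34d replicate 2 (7.19% to 15.7%). In the other 8 libraries this share ran from 27.9% (26.2% to 29.6%) in PLA_34d replicate 1 to 39.4% (37.4% to 41.5%) in AP_1h replicate 1. The intervals of the 2 low libraries lay below all others. The libraries belong to different groups, placebo at 1 h and at 34 days, and each has a partner in its group with a share among the rest (31.3% and 27.9%). The β chain of RT1-D varied less: its share of RT1-Da and RT1-Db1 reads lay between 32.1% (29.4% to 35.0%), again in PLA_1h replicate 1, and 45.7% (43.99% to 47.5%) in AP_1h replicate 1, and was 39.1% (34.4% to 43.97%) in PLA_34d replicate 2.

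Ciita gave 5.33% of the reads of Ciita and Cd74 together in PLA_34d replicate 1 (4.80% to 5.91%), against 0.708% (0.325% to 1.54%) to 2.52% (1.86% to 3.41%) elsewhere. In AP_1h replicate 1 this share was 1.85% (1.48% to 2.30%), within the span of the remaining libraries. Cd74 was thus high in both libraries, and Ciita was high relative to Cd74 in 1 of them. The DM chains moved the other way. In PLA_34d replicate 1 RT1-DMa gave 3.04% (2.64% to 3.50%) of its reads plus those of Cd74 and RT1-DMb 5.09% (4.58% to 5.66%). This was the lowest share of the 10 libraries for both, against up to 7.59% and 10.98%. Both intervals overlapped that of the next lowest library. It was PLA_1h replicate 1 for RT1-DMa (3.61%, 2.81% to 4.64%) and AP_34d replicate 1 for RT1-DMb (5.90%, 4.69% to 7.40%).

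**Figure D3:**
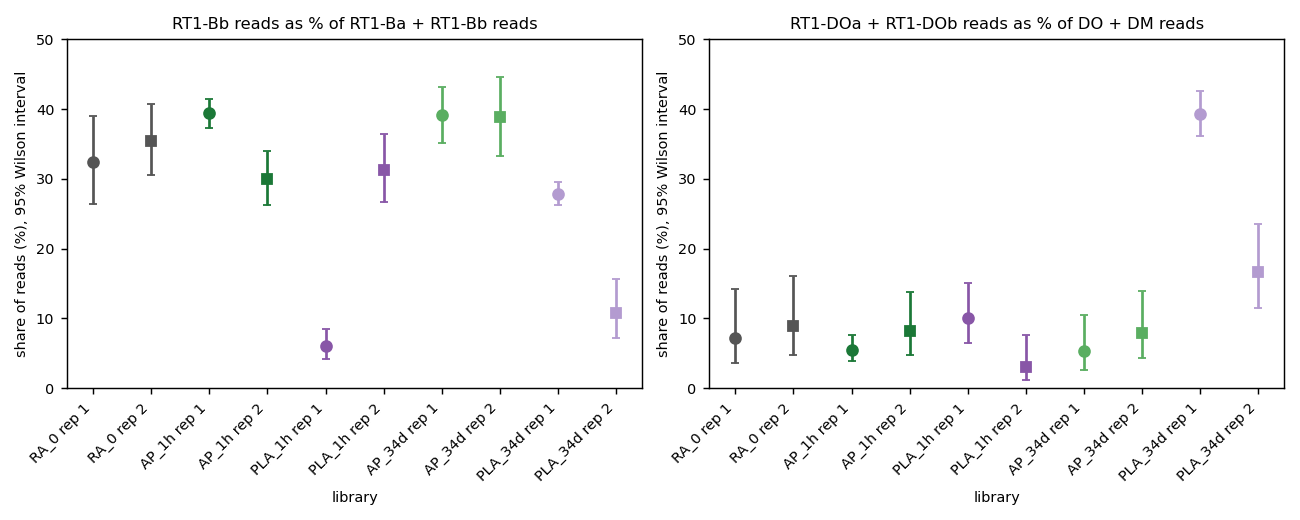
Left, RT1-Bb reads as a percentage of RT1-Ba plus RT1-Bb reads, and right, RT1-DOa plus RT1-DOb reads as a percentage of all DO plus DM reads, per library with 95% Wilson intervals (counting error only). RT1-Bb falls to 5.99% and 10.7% in 2 libraries, and the DO share reaches 39.3% in PLA_34d replicate 1.

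The transcripts most like Cd74 over the 10 libraries, among 8137 candidates that were no members and averaged at least 5 CPM, were Unc93b1 (Pearson's r 0.980), Laptm5 (0.962), Cotl1 (0.950), Tap1 (0.944), Fam65b (0.940) and Gsdmd (0.938). Unc93b1, which carries nucleic acid-sensing Toll-like receptors to endosomes, was at 24.6 CPM in AP_1h replicate 1 and 28.8 in PLA_34d replicate 1, and between 4.83 and 12.1 in the others. Laptm5, a lysosomal membrane protein of blood cells, was at 44.3 and 143 CPM in the same libraries and between 9.38 and 23.4 elsewhere. Tap1, part of the pump that loads class I molecules, was at 21.4 and 30.3 CPM and between 7.02 and 12.6 elsewhere, and its gene (rn4 chromosome 20, 4790363 to 4800730) lies between RT1-Bb and RT1-DMb. Without AP_1h replicate 1 and PLA_34d replicate 1, r was 0.937 for Unc93b1 and 0.824 for Laptm5, and between 0.569 and 0.753 for the other 4.

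Among the factors that act upstream of class II genes, 14 of 17 rows were tested (15 genes, among them the RFX and NF-Y subunits that bind the X and Y boxes, and the interferon-γ pathway that induces Ciita). None passed limma's test and none reached an unadjusted p under 0.05 in any of the 7 comparisons. Their medians lay between -0.19 and 0.12 log2 units. Summed, the list was at 691 CPM in PLA_34d replicate 1 and 570 in AP_1h replicate 1, against 529 to 622 in the others. Of the 15 genes, 7 were highest in PLA_34d replicate 1 and 1 in AP_1h replicate 1. Irf1 of this list was at 37.5 CPM in PLA_34d replicate 1, 32.2 in AP_1h replicate 1 and 12.2 to 19.5 elsewhere. Rfx5, the DNA-binding subunit of RFX, had the smallest p of the list for PLA_34d against RA_0. It was at 18.1 and 41.4 CPM in RA_0 and 63.6 and 42.4 in PLA_34d. Its groups did not overlap, which held in this direction for 16.8% of all transcripts. For AP_34d against RA_0 the smallest p was that of Jak2, a kinase of the interferon-γ receptor. Jak2 was at 20.9 and 67.8 CPM in AP_34d against 18.1 and 24.2 in RA_0.

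For the loading and trafficking of class II, 12 of 15 rows were tested, none passed limma's adjusted test, and up to 3 per comparison had an unadjusted p under 0.05. Ctss, the cathepsin that trims the invariant chain in antigen-presenting cells, was high in the same libraries as the members: it was at 8.11 and 8.91 CPM in RA_0, 42.5 and 16.9 in AP_1h, 20.5 and 14.04 in PLA_1h, 25.2 and 10.3 in AP_34d, and 38.4 and 7.82 in PLA_34d. Ctsl1 (cathepsin L) was high in AP_1h replicate 1 but not in PLA_34d replicate 1. It was at 148 and 176 CPM in RA_0, 867 and 229.8 in AP_1h, and 348 and 412 in PLA_1h. In AP_34d it was at 598 and 938 CPM, and in PLA_34d at 107 and 234. Of the 10 libraries it was highest in AP_34d replicate 2 and lowest in PLA_34d replicate 1. Its log2 difference was 2.21 ± 0.59 (SE) for AP_34d against RA_0 (limma adjusted p 0.801) and 2.23 ± 0.59 for AP_34d against PLA_34d (limma adjusted p 0.846), or 1.67 ± 0.69 without PLA_34d replicate 1. Lgmn, a lysosomal protease, was at 74.0 and 102 CPM in AP_34d, 37.6 and 33.8 in PLA_34d and 42.2 and 46.2 in RA_0. Neither passed the test. The AP_34d libraries of both genes lay above those of RA_0 and PLA_34d, which held for 16.4% and 16% of all transcripts. Lgmn was also at 79.7 and 39.04 CPM in AP_1h and 49.4 and 60.0 in PLA_1h.

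RT1-DOa and RT1-DOb form DO, an inhibitor of DM that is made mainly by B cells. RT1-DOa was at 17.9 CPM in PLA_34d replicate 1 and between 0.526 and 2.84 CPM in the other 9 libraries, and RT1-DOb at 19.5 CPM and between 0.175 and 1.19. DO reads made up 39.3% of DO plus DM reads in PLA_34d replicate 1 (95% Wilson interval 36.1% to 42.7%), 16.7% in PLA_34d replicate 2 (11.5% to 23.6%) and from 3.08% to 10.0% in the other 8. AP_1h replicate 1, the other library high in class II, had 5.43% (3.83% to 7.65%). The log2 difference of RT1-DOa for PLA_34d against RA_0, 2.01 ± 0.65 (SE), had an unadjusted p of 0.0108 and did not pass (limma adjusted p 0.914). Without PLA_34d replicate 1 it was 0.86 ± 0.49. RT1-DOb, RT1-Db2 and RT1-Ha were too low to be tested.

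Of a list of costimulatory genes, some of which give T cells the second signal beside the peptide, 4 of 7 rows were tested and none passed. The list also held Cd274, Pdcd1lg2 and Icam1, so it is broader than that signal. All 7 were highest in PLA_34d replicate 1, where they summed to 80.0 CPM, against 26.9 in AP_1h replicate 1 and 6.44 to 13.7 in the others. Cd83, a marker of mature dendritic cells and activated B cells, was at 34.3 CPM in PLA_34d replicate 1, 8.11 in AP_1h replicate 1 and at most 3.87 elsewhere. Cd40 was at 7.85 and 1.71 CPM in PLA_34d and 1.19 and 0.743 in RA_0, and it passed the filter on low values through PLA_34d alone, so no test is given. Cd80 and Cd86, the ligands of Cd28, were at most 1.57 CPM in any library.

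The class I pathway, which shows peptides made inside the cell and is used by nearly all cells, was tested at 29 of 34 rows and gave no call. Its sum lay at 2268 CPM in AP_1h replicate 1 and 2078 in PLA_34d replicate 1, inside the span of the others (1535 to 2961). That sum is carried by abundant genes such as B2m, and 18 of the 31 symbols measured were highest in PLA_34d replicate 1 and 1 in AP_1h replicate 1. B2m, the light chain of class I, was at 526 and 639.98 CPM in RA_0, 1038 and 1714 in AP_1h, 1565 and 1067 in PLA_1h, 899.6 and 487 in AP_34d, and 787 and 709.7 in PLA_34d, and thus did not share the pattern of class II. The heavy chain rows RT1-EC2 and RT1-S3 had the smallest p-values for PLA_1h against RA_0, at 25.6 and 29.3 CPM against 4.06 and 6.98, and at 50.3 and 89.2 against 23.6 and 22.9, neither passing (limma adjusted p 1.00). For AP_34d against PLA_34d these were Tap2 and Psmb9, a pump subunit and an immunoproteasome subunit. Tap2 was at 39.04 and 20.2 CPM in PLA_34d against 14.3 and 11.8 in AP_34d. Psmb9 was at 18.1 and 7.11 CPM in PLA_34d against 4.30 and 3.73 in AP_34d. Their log2 differences were -1.06 and -1.31, or -0.60 and -0.70 without PLA_34d replicate 1. Class I rows come from a multigene family, so that reads may be split among copies.

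Markers of several other cell types were high in 1 or both of the libraries high in class II. In PLA_34d replicate 1 the 11 measured B cell markers summed to 485 CPM, against 5.38 to 18.9 CPM in the other libraries, AP_1h replicate 1 (10.2) included, and all 11 were highest there. Cd79b, part of the B cell receptor complex, was at 72.0 CPM in that library and at 0.216 CPM in AP_1h replicate 1. T cell markers summed to 328 CPM in PLA_34d replicate 1 and 39.2 in AP_1h replicate 1, against 10.5 to 22.4 elsewhere. Markers of lymph node stroma and vessels summed to 703 CPM in PLA_34d replicate 1 against 23.9 to 74.0 in all others, with Glycam1, a mucin of lymph node venules, at 172 CPM there, 4.12 in PLA_34d replicate 2 and 0 in the remaining 8.

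Macrophage markers were highest in AP_1h replicate 1. The 18 measured summed to 443 CPM there, 397 in PLA_34d replicate 1, 334 in AP_34d replicate 1 and 126 to 201 in the other 7, and 12 of the 18 were highest in AP_1h replicate 1 against 4 in PLA_34d replicate 1. Cd68 was at 24.0 CPM in AP_1h replicate 1 and 15.9 in PLA_34d replicate 1, and between 2.84 and 10.9 elsewhere. Tyrobp, the adaptor of several myeloid receptors, was at 20.6 and 14.1 CPM and between 2.39 and 8.51 elsewhere. Other markers of the list did not lead in both libraries. Cd163 was at 13.8 CPM in AP_1h replicate 1 and 7.07 in PLA_34d replicate 1, but at 18.2 and 19.9 in AP_34d. Fcgr1a was at 11.8 CPM in AP_1h replicate 1 and 3.59 in PLA_34d replicate 1. Dendritic cell markers summed to 113 CPM in PLA_34d replicate 1 and 48.8 in AP_1h replicate 1, against 11.8 to 28.6 in the others. Clec10a, found on dendritic cells and macrophages, was highest in AP_1h replicate 1 (34.4 CPM) and lowest in PLA_34d replicate 1 (5.61 CPM). Ccr7, which guides cells to lymph nodes, was highest in PLA_34d replicate 1 (45.2 CPM, at most 0.995 elsewhere). In that library Ccr7 and Irf8 (36.5 CPM), a factor of B cells as well as dendritic cells, made up most of the dendritic cell sum.

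Pan-leukocyte markers summed to 1039 CPM in PLA_34d replicate 1 and 227 in AP_1h replicate 1, against 88.1 to 129 in the others. Of the 10 symbols measured, 8 were highest in PLA_34d replicate 1. No list had all markers at 0 in any library. Ptprc, the pan-leukocyte gene Cd45, was listed at 0 in all 5 of its rows and all libraries. Its rows are isoforms that overlap one another, and reads that fit several transcripts were dropped by the counting. Endothelial markers summed to 298 CPM in AP_1h replicate 1 and 259 in PLA_34d replicate 1, inside the span of the others (193 to 339). Neutrophil markers summed to 18.9 CPM in AP_1h replicate 1, above the others (1.56 to 16.5), and to 7.52 in PLA_34d replicate 1. The part that these cell types had in the levels of the class II genes was not tested. Muscle markers summed to 173404 CPM in AP_1h replicate 1 and 145648 in PLA_34d replicate 1, the lowest of the 10 libraries, the others lying between 191366 and 401432 CPM.

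**Figure D4:**
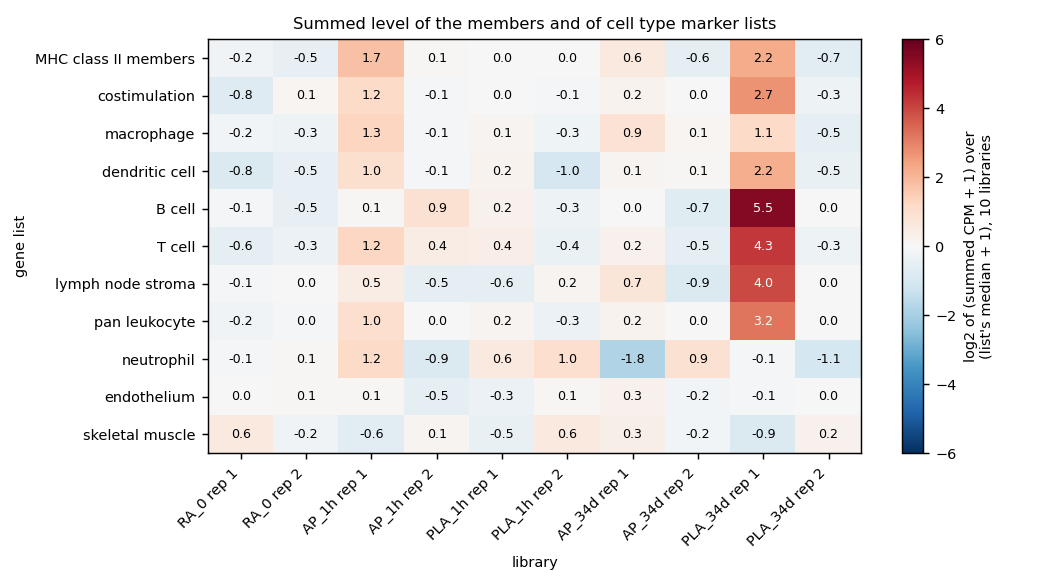
log2 of the summed CPM plus 1 of each gene list (rows) in each library (columns), relative to the list's median over the 10 libraries, with the value printed in each cell. The members are raised in AP_1h replicate 1 and PLA_34d replicate 1, B cell and lymph node lists stand out in PLA_34d replicate 1, and the macrophage list is raised in both and in AP_34d replicate 1.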

How the data were processed

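Muscle tissue of 10 rats was profiled by RNA-seq. According to the study's methods and the submitters' processing notes, reads were trimmed with cutadapt 1.2.1, aligned to rn4 with Bowtie2 2.1.0 and counted per transcript with HTSeq 0.5.4p3. Whether strand was used is not given in the sources used here. Each deposited signal is a CPM of 1 transcript, which the authors scaled with TMM factors from edgeR 3.4.2. All values were whole multiples of 1 read within 0.01 reads, so reads were recovered, and TMM factors recomputed from them gave the same values within 2.76e-07%.

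Transcripts were kept where both animals of any group had 1 CPM or more. limma 3.58.1 (eBayes, trend on mean level, with 5 residual degrees of freedom and 5.14 from the prior) was fitted to log2(CPM + 1) of all 10 libraries, with a mean per group. Fold changes on this scale understate changes of low transcripts. The SEs and p-values of this fit draw on the spread within all 5 groups, not only those compared. A Benjamini-Hochberg adjusted p under 0.05 over all 10259 transcripts was a call. limma-voom, edgeR 4.0.16 and DESeq2 1.42.0 on recovered reads (R 4.3.3), other pseudocounts, filters and scalings, a replicate block and each library left out were alternatives. Members and gene lists were chosen with earlier results of these data known. Genes named are all members, the 6 transcripts most like Cd74, and, per pathway list and comparison, up to 2 with the smallest p, beside Ptprc, Ctss, B2m and RT1-DOa. Further genes of the lists were chosen as examples after their values were seen. Some genes of the lists are not reported here by name. The fits were tested on simulated counts. Intervals and floors cover counting error only.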

Additional observations from a re-analysis of the deposited data

How the results depend on the processing

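With 2 animals per group, leaving out 1 library turned the members' median in 3 of 7 comparisons (AP_34d and PLA_34d against RA_0, AP_34d against PLA_34d), and low genes such as Ciita (5 to 13 reads in several libraries) are measured with little depth. The count of called members was repeated under 23 alternatives in 7 comparisons, and 160 repeats kept it at 0. The 1 exception was PLA_34d against RA_0, where the count ran from 0 to 1 as single libraries were left out (1, Ciita, without PLA_34d replicate 2, where limma called 161 of all transcripts, 1.57%). Over all transcripts DESeq2 called 166 in AP_1h against RA_0 where limma called 3, and 33, 10, 38, 39, 87 and 22 in AP_34d, PLA_1h and PLA_34d against RA_0, AP_1h against PLA_1h, AP_34d against PLA_34d and the interaction, where limma called 0, while limma-voom and edgeR called 0 throughout.

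The number of members meeting the study's rule, 0 in all 6 comparisons it was applied to, moved more, as did the share of all transcripts meeting it, given in brackets. For AP_1h against RA_0 it was 4 with DESeq2 (7.86%), 5 with only the groups compared (8.35%), and 0 to 3 with single libraries left out: 3 without PLA_34d replicate 1 (6.78%) or 2 (6.79%) and 1 without AP_1h replicate 2 (6.39%). For PLA_34d against RA_0 it was 3 with edgeR (4.2%), 5 with DESeq2 (4.88%), 1 with AP_1h replicate 1 and PLA_34d replicate 1 both left out, a choice made after seeing the data (1.34%), and 0 to 8 with single libraries left out: 8 without PLA_34d replicate 2 (10.1%). For AP_1h against PLA_1h it was 1 with DESeq2 (3.56%), 2 with only the groups compared (3.9%) and 0 to 1 with single libraries left out: 1 without AP_1h replicate 2 (4.5%), PLA_1h replicate 2 (2.43%) or either PLA_34d library (2.99%). For AP_34d against PLA_34d it was 1 with edgeR (5.93%), 2 with DESeq2 (6.12%), 1 with both high libraries left out (2.5%) and 0 to 6 with single libraries left out: 6 without PLA_34d replicate 2 (10.1%) and 1 without PLA_34d replicate 1 (2.42%).

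No pairing by replicate number common to all groups was seen. The correlation of same-numbered deviations over 10 pairs of groups ran from -0.46 to 0.45, with 4 above 0.1. Whether some same-numbered libraries were handled together was not tested. With the replicate block, 1 member (RT1-Da) met the study's rule in AP_1h against RA_0 (6.07% of all transcripts) and 2 (RT1-Da and Ciita) in PLA_34d against RA_0 (2.79%), the block calling 0 members in every comparison.

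The members' median difference ran, with single libraries left out, from -0.23 to 2.49 for PLA_34d against RA_0, from -2.26 to 0.59 for AP_34d against PLA_34d and from -3.32 to -0.31 for the interaction. With both high libraries left out these were -0.23, 0.59 and 0.42.

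The differences of the 2 members at the ends of each comparison's range kept their sign and side of the threshold in 300 repeats and changed sign in 21. RT1-DMb in AP_34d against RA_0 was at -0.0045 with edgeR and -0.0069 with DESeq2, and -0.41 to 0.51 with single libraries left out. RT1-Bb was at -0.013 with a pseudocount of 0.25 and -2.13 without both high libraries in PLA_34d against RA_0, and at -0.62 with edgeR and -0.56 with DESeq2 in AP_34d against PLA_34d. With single libraries left out it ran from -0.040 to 1.30 for AP_34d and from -2.22 to 0.17 for PLA_1h against RA_0, from -2.13 to 2.28 for PLA_34d against RA_0 and from -1.65 to 2.76 for AP_34d against PLA_34d. Ciita ran from -0.094 to 1.18 for PLA_1h against RA_0, from -0.59 to 1.55 for AP_1h against PLA_1h and from -3.60 to 0.41 for AP_34d against PLA_34d, with -0.59 and 0.41 in the last comparisons without both high libraries. Without both, the interaction was 0.17 for RT1-Db1 and 0.40 for RT1-DMa. Where no left-out library is named, the cause was not tested.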

Other observations

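The drop of RT1-Bb in PLA_1h replicate 1 and PLA_34d replicate 2 was shared by few other transcripts, a search made after the values had been seen. Of 10259 transcripts tested, 5 (0.0487%) had both of these libraries below 0.5 times the lowest of the other 8. They were RT1-Bb, RT1-T24-4, RT1-CE16, Slc2a10 and Pdxk. The libraries had been chosen as the lowest in RT1-Bb, so its own place among the 5 is no separate result. Of the rest, RT1-T24-4 and RT1-CE16 are RT1 genes, and 32 RT1 rows were tested. RT1-T24-4, a class I gene, was at 1.59 CPM in PLA_1h replicate 1 and 0.853 in PLA_34d replicate 2, and between 6.42 and 18.6 elsewhere. RT1-CE16, also of class I, was at 9.81 and 7.68 CPM, and between 21.5 and 71.9 elsewhere. The cause was not tested.

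Immunoproteasome and class I loading genes encoded among the class II genes were high in PLA_34d replicate 1 as well. Psmb8 was at 39.6 CPM there, 14.5 in AP_1h replicate 1 and 6.98 to 12.99 in the others, and Psmb9 at 18.1, 12.6 and 3.73 to 8.35 CPM. Ifi30, a thiol reductase that unfolds antigens in lysosomes, was at 53.2 CPM in PLA_34d replicate 1, 46.1 in AP_1h replicate 1 and 11.8 to 25.6 in the others. Irf8, a factor of B cells and of dendritic cells, was at 36.5, 5.08 and 0.477 to 3.87 CPM.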
